A study of Capra hircus with 10 samples.

Results

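Circular RNAs (circRNAs) of the microtubule regulators VASH2 and CAMSAP1 were examined in goat preadipocytes from intramuscular fat (IMPA) and in the adipocytes derived from them (IMA). A circRNA forms when a downstream splice donor is joined back to an upstream acceptor, and it is recognized by reads that cross this back-splice junction. All circRNAs whose host gene is VASH2 or CAMSAP1 were taken, which gave 2 of the 1327 circRNAs in the data, 1 from each gene. Both genes were selected on measured values of these same libraries, namely the abundance, the circular share and the change between IMPA and IMA. Those values are therefore given below as a description, with their spread and without a test.

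The cells were isolated from intramuscular fat of the longissimus dorsi muscle of 3 male Jianzhou goats aged 7 days, all wild type. There were 5 IMPA libraries, collected on day 0, and 5 IMA libraries, collected on day 3 after the growth medium was replaced by an induction medium with oleic acid. The labels give the same treatment, adipogenic differentiation, for both groups. The sources used here do not tie libraries to goats. As 3 goats gave 5 libraries in each group, some libraries of a group must share an animal. SDs and standard errors therefore measure the spread between libraries. The p-values below likewise treat libraries, not animals, as the independent units. Per the paper, a much smaller share of clean reads mapped to the goat genome in every IMA library than in every IMPA library. This difference in mapping goes with the group, and its part in the values below was not tested. Ribosomal RNA was removed, and junction reads of a library summed to between 11421 and 15553 in IMPA and between 9622 and 12499 in IMA. One junction read was thus worth 64.3 to 87.6 TPM in the IMPA libraries and 80.0 to 104 TPM in the others, where TPM is the name the data give to reads per 1000000 junction reads, without a term for length. None of the 15 listed adipocyte genes hosted a circRNA, so the cell type labels could not be checked against adipocyte markers. None of the 9 endothelial and mural genes and none of the 6 immune genes hosted one, and 2 of the 14 preadipocyte and fibroblast genes did.

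Microtubules are polar polymers of α- and β-tubulin that support cell shape and carry organelles. VASH2 (vasohibin 2) is a tubulin carboxypeptidase that, with its partner SVBP, removes the last tyrosine of α-tubulin, a mark that the ligase TTL puts back. CAMSAP1 (calmodulin-regulated spectrin-associated protein 1) belongs to a family that binds the minus ends of microtubules, including those not held at the centrosome. Preadipocytes are spread and fibroblast-like, and the cytoskeleton is rebuilt as they round up and fill with lipid droplets.

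The circRNA of VASH2 (circ_0008259) lies at chr16:69271526-69272417 on the minus strand, in the coordinates of the deposited files, whose genome build is not given in the sources used here. It was made of 2 exons of 75 and 57 nt, separated by an intron of 760 nt, and its spliced length was 132 nt. The circRNA of CAMSAP1 (circ_0005860) lies at chr11:102883877-102885038, also on the minus strand. It held 2 exons of 162 and 263 nt around an intron of 737 nt and measured 425 nt when spliced. Both were compact on the genome. Of the 1274 circRNAs derived from exons, 79 (6.20%) spanned no more than the 892 nt of the VASH2 circRNA and 107 (8.40%) no more than the 1162 nt of the CAMSAP1 circRNA, against a median span of 8218 nt. Among the 447 circRNAs with 2 exons, the intron between the exons had a median of 3815 nt, and it was shorter than that of VASH2 in 63 and shorter than that of CAMSAP1 in 62.

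Spliced length set the pair apart. The VASH2 circle was among the shortest, with 78 exon-derived circRNAs (6.12%) no longer than it, while 84.5% were no longer than the CAMSAP1 circle. Both VASH2 exons were whole multiples of 3 nt, of 25 and 19 codon lengths, which held for both exons in 63 (14.1%) of the 2-exon circRNAs. In CAMSAP1 the exon of 162 nt was a multiple of 3 and the exon of 263 nt was not. VASH2 and CAMSAP1 gave a single circRNA each, as did 701 (74.2%) of the 945 host genes.

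The study listed a pair of qRT-PCR primers under the name of each of these circRNAs. They are shown as the sequences that the study assigned to each circle; all bases are in lower case and no part is marked. Their position relative to the junction was not analysed here. The qRT-PCR results in the paper cover the VASH2 circRNA, reported there as up-regulated, and do not cover that of CAMSAP1.
VASH2 forward: actcgggagtccctgcctat
VASH2 reverse: ttaacccactcagcggtctc
CAMSAP1 forward: ctgctcgtactggtcgatgtaa
CAMSAP1 reverse: ggagatgatcagcattgagaagg
The VASH2 primers were 20 nt each, with 60.0% and 55.0% G and C. The CAMSAP1 primers were 22 and 23 nt, with 50.0% and 47.8% G and C.

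The VASH2 circRNA was higher in IMA. It was covered by 98, 88, 128, 112 and 144 junction reads in IMPA replicates 1 to 5 and by 185, 178, 186, 160 and 166 junction reads in IMA replicates 1 to 5. The smallest IMA count thus exceeded the largest IMPA count, although the IMA libraries held fewer junction reads on average. In deposited TPM the libraries ranged from 6923 to 9259 in IMPA and from 14881 to 17683 in IMA. After scaling with TMM factors (normalized TPM), the level was 8623 ± 1141 (SD, n = 5) in IMPA against 15953 ± 672 (SD, n = 5) in IMA. The log2 fold change of junction reads was 0.88 (SE 0.11), which is 1.85-fold. A higher log2 fold change was found for 78 of the 1294 circRNAs that were tested.

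The groups did not overlap for VASH2. Normalized TPM lay between 7154 and 9507 in IMPA and between 14872 and 16660 in IMA. Over all tested circRNAs, non-overlapping groups with the higher level in IMA were found in 29, or 2.24%, and an adjusted p under 0.01 (edgeR, quasi-likelihood test with Benjamini-Hochberg adjustment) with the higher level in IMA in 6, or 0.464%. Nothing is read from these shares for VASH2, which was chosen by this contrast. The SD of normalized TPM was 13.2% of the mean in IMPA, where counting alone gives 9.51%, and 4.22% in IMA, where counting alone gives 7.57%. The spread in IMA was thus no larger than counting error.

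The CAMSAP1 circRNA was lower in IMA, by a smaller fold. It was covered by 215, 156, 176, 176 and 216 junction reads in IMPA replicates 1 to 5 and by 100, 129, 116, 99 and 134 junction reads in IMA replicates 1 to 5. Every IMA library held fewer of its reads than every IMPA library, but the IMA libraries were also shallower. In deposited TPM the groups overlapped, at 12261 to 15188 in IMPA against 8973 to 13094 in IMA. In normalized TPM they did not, at 13072 to 15695 in IMPA against 8823 to 12838 in IMA, so that the separation of CAMSAP1 rested on the TMM factors. The mean normalized TPM was 14239 ± 1026 (SD, n = 5) in IMPA against 10583 ± 1773 (SD, n = 5) in IMA.

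The log2 fold change of CAMSAP1 junction reads was -0.43 (SE 0.12), or 1.35-fold higher in IMPA. A lower log2 fold change was found for 388 of the 1294 tested circRNAs, and the median over all of them was -0.08. Non-overlapping groups with the lower level in IMA were found in 30 circRNAs, or 2.32%, and an adjusted p under 0.01 with the lower level in IMA in 6, or 0.464%. The choice of scaling shifted both values. With the total of non-junction reads as library size, the median log2 fold change of all circRNAs moved from -0.08 to 0.16, the value of CAMSAP1 from -0.43 to -0.18 and that of VASH2 from 0.88 to 1.14. Relative to the median of all circRNAs the values hardly moved, from -0.35 to -0.34 for CAMSAP1 and from 0.97 to 0.98 for VASH2. The SD in IMA was 16.8% of the mean for CAMSAP1, where counting alone gives 9.37%, and in IMPA 7.21%, where counting alone gives 7.36%.

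**Figure D1:**
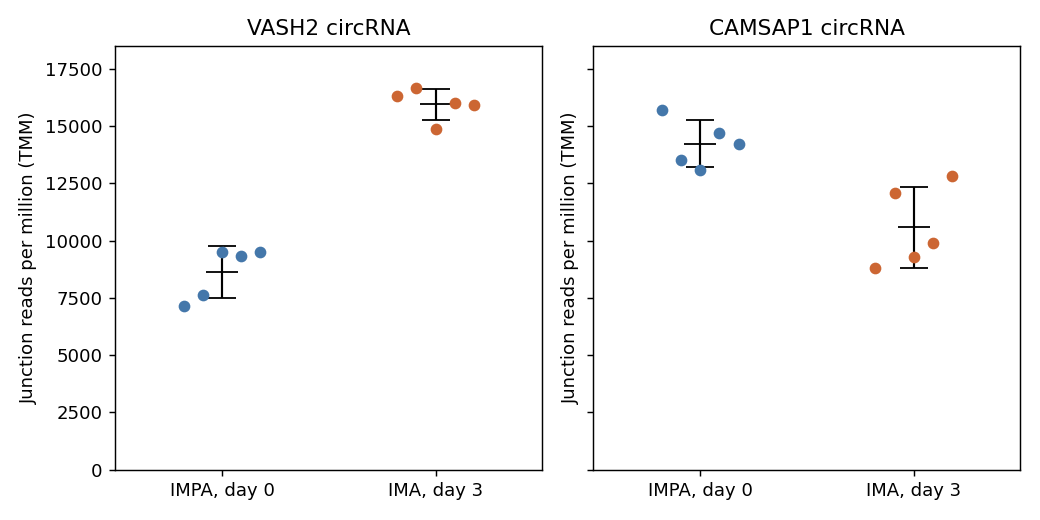
Normalized TPM of junction reads after TMM scaling for the VASH2 circRNA (left) and the CAMSAP1 circRNA (right); each point is 1 library, and the black marks give the mean and SD of the 5 libraries of a group. The means were 8623 and 15953 for VASH2 and 14239 and 10583 for CAMSAP1, with no overlap between groups in either.

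The ratio of both circRNAs within a library needs no scaling between libraries. VASH2 junction reads over CAMSAP1 junction reads were 0.456, 0.564, 0.727, 0.636 and 0.667 in IMPA replicates 1 to 5 and 1.85, 1.38, 1.60, 1.62 and 1.24 in IMA replicates 1 to 5. CAMSAP1 junction reads outnumbered those of VASH2 in all 5 IMPA libraries, and the order was turned in all 5 IMA libraries. The mean ratio was 0.610 ± 0.104 (SD, n = 5) in IMPA against 1.54 ± 0.236 (SD, n = 5) in IMA. Together both circRNAs took 2.22% ± 0.102 (SD, n = 5) of all junction reads in IMPA and 2.73% ± 0.261 (SD, n = 5) in IMA, and the groups did not overlap in this sum.

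Both circRNAs were among the most abundant in the data. VASH2 ranked 11, 10, 9, 8 and 9 by junction reads in IMPA replicates 1 to 5 and ranked 1 in all 5 IMA libraries. CAMSAP1 ranked 1, 1, 3, 1 and 1 in IMPA replicates 1 to 5 and 7, 2, 7, 5 and 3 in IMA replicates 1 to 5. The median circRNA had a mean of 458 TPM in IMPA and 469 TPM in IMA, against 8384 ± 1023 and 16403 ± 1010 (SD, n = 5 each) in deposited TPM for VASH2 and 13865 ± 1070 and 10890 ± 1949 (SD, n = 5 each) for CAMSAP1.

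In IMA the VASH2 circRNA stood clear of the next in order. The second by mean TPM was that of the zinc transporter SLC30A7, at 11686 ± 1732 (SD, n = 5), whose highest library, 14559 TPM, was below the lowest of VASH2, 14881 TPM. Within a library, VASH2 had 1.38, 1.38, 1.27, 1.23 and 1.11 times the reads of the highest other circRNA in IMA replicates 1 to 5, which was that of the ubiquitin ligase UBE3A in replicates 1, 3 and 4, CAMSAP1 in replicate 2 and SLC30A7 in replicate 5. In IMPA, VASH2 could not be told from its neighbours in order by their spread: the range of VASH2, 6923 to 9259 TPM, overlapped that of PRMT2 above it, 8618 to 10866 TPM, and that of PAPD4 below it, 7327 to 8406 TPM. PRMT2 is an arginine methyltransferase and PAPD4 a poly(A) polymerase.

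The top place of CAMSAP1 in IMPA was not clear of the next. The circRNA of SLTM, a nuclear RNA-binding protein, had 13017 ± 919 TPM (SD, n = 5) there, with libraries from 12362 to 14629, within the range of CAMSAP1. In IMA, where CAMSAP1 had rank 4 by mean TPM, its range also overlapped those of UBE3A above it, 9283 to 13511 TPM, and of PAPD4 below it, 8801 to 12021 TPM. Junction reads are counted at the join of a circle alone, so dividing them by length favours short circles and does not measure the number of circles. With this division, per 100 nt of spliced length, the order changed. The VASH2 circRNA then had rank 1 in both groups, at 6352 TPM per 100 nt in IMPA and 12426 TPM per 100 nt in IMA. The CAMSAP1 circRNA had rank 5 in IMPA, at 3262 TPM per 100 nt, and rank 6 in IMA, at 2562 TPM per 100 nt.

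**Figure D2:**
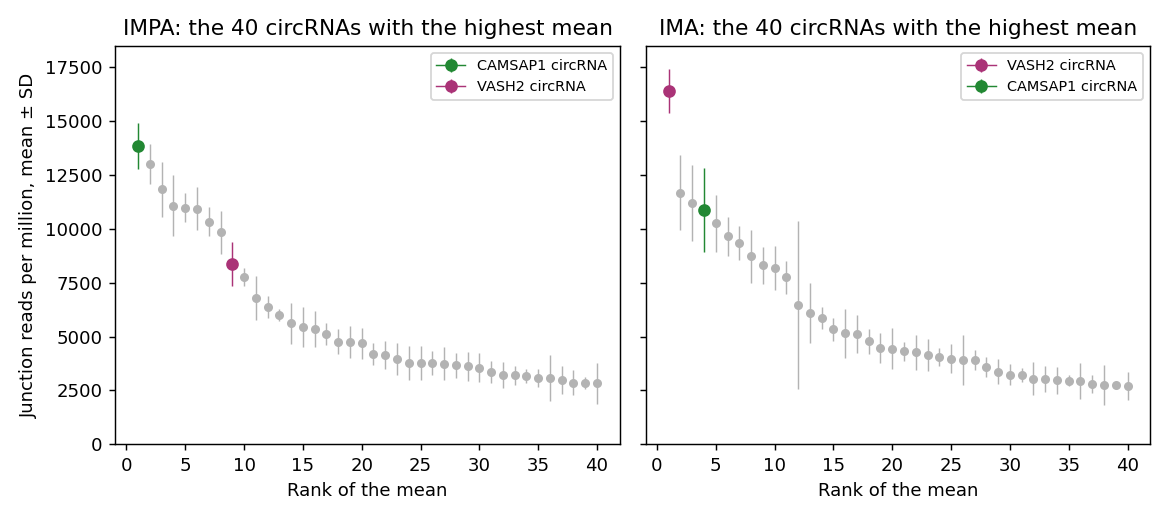
Mean deposited TPM (with SD over 5 libraries) of the 40 circRNAs with the highest mean in IMPA (left) and in IMA (right), in order of rank. CAMSAP1 had rank 1 and VASH2 rank 9 in IMPA, and VASH2 had rank 1 and CAMSAP1 rank 4 in IMA.

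The non-junction reads, which are reads counted at the same splice sites without crossing the back-splice, stand for the linear transcripts. For VASH2 there were 783, 716, 788, 733 and 950 non-junction reads in IMPA replicates 1 to 5 and 509, 564, 641, 499 and 526 in IMA replicates 1 to 5. The IMA libraries also held fewer non-junction reads in all. After TMM scaling over the 690 circRNAs with both kinds of reads listed in every library, VASH2 had 3770 ± 103 counts per 1000000 (CPM) of non-junction reads (SD, n = 5) in IMPA against 3884 ± 240 (SD, n = 5) in IMA. The groups overlapped, and the log2 fold change of non-junction reads was 0.04 (SE 0.06), beside a median of 0.00 over all 690. The junction reads of VASH2 were thus higher in IMA by 0.88 on the log2 scale while its non-junction reads differed by less than their SE.

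For CAMSAP1 there were 80, 65, 71, 63 and 87 non-junction reads in IMPA replicates 1 to 5 and 44, 44, 43, 40 and 48 in IMA replicates 1 to 5. After scaling these were 347 ± 25.2 CPM (SD, n = 5) in IMPA against 313 ± 37.3 CPM (SD, n = 5) in IMA, with overlapping groups. The log2 fold change was -0.16 (SE 0.13). VASH2 was 50th of 690 by mean non-junction reads in IMPA and 44th in IMA, whereas CAMSAP1 was 574th and 590th. Among these 690, VASH2 thus stood high and CAMSAP1 low in the order of linear reads, although both were near the top of the order of junction reads. VASH2 had 10.9 ± 0.676 times (SD, n = 5) the non-junction reads of CAMSAP1 in IMPA and 12.5 ± 1.51 times (SD, n = 5) in IMA, with overlapping groups.

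The circular share is here the doubled junction reads as a percentage of doubled junction reads plus non-junction reads, since a circle has 1 join and a linear transcript crosses both splice sites. For VASH2 it was 20.0, 19.7, 24.5, 23.4 and 23.3% in IMPA replicates 1 to 5 and 42.1, 38.7, 36.7, 39.1 and 38.7% in IMA replicates 1 to 5. The groups were far apart compared with their spread, at 22.2% ± 2.17 (SD, n = 5) and 39.1% ± 1.93 (SD, n = 5), a difference of 16.9 percentage points. Of the 690 circRNAs, 34, or 4.93%, had circular shares in IMA that were all above those in IMPA.

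For CAMSAP1 the circular share was 84.3, 82.8, 83.2, 84.8 and 83.2% in IMPA replicates 1 to 5, and it lay between 82.0 and 85.4% in IMA. The means were 83.7% ± 0.860 (SD, n = 5) and 84.0% ± 1.38 (SD, n = 5), a difference within the SD of either group. By this measure circular molecules made up most of what was read at the CAMSAP1 splice sites in every library. The median share of the 690 circRNAs was 10.4% in IMPA and 12.8% in IMA. A mean share above that of VASH2 was found for 152 of the 690 circRNAs (22.0%) in IMPA and for 77 (11.2%) in IMA.

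**Figure D3:**
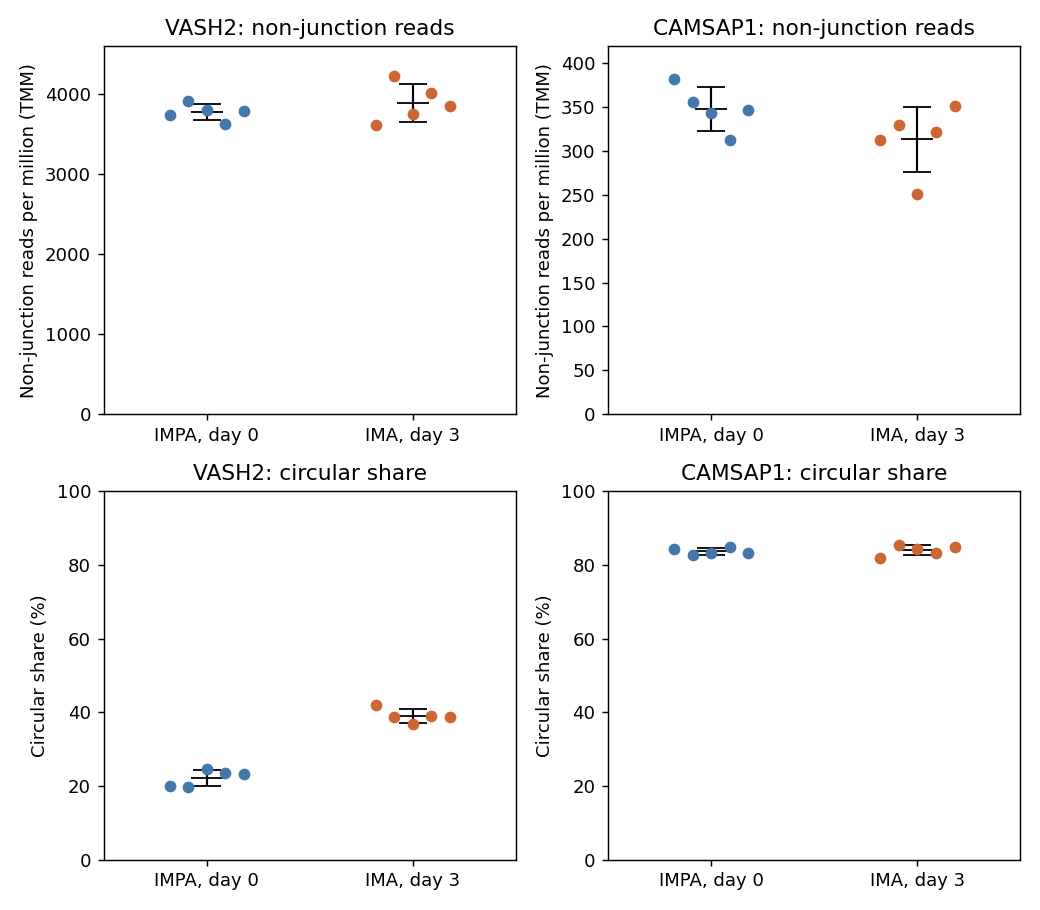
Non-junction CPM after TMM scaling (top) and circular share in percent (bottom) for VASH2 (left) and CAMSAP1 (right); points are libraries, and black marks give the mean and SD of 5 libraries. Groups overlapped in 3 of the 4 panels, and the circular share of VASH2 was 22.2% in IMPA and 39.1% in IMA.

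The mean circular share was higher in IMA for 509 (73.8%) of the 690 circRNAs, and the median change was 1.68 percentage points. The difference of VASH2 was larger than that of 686 circRNAs. Those with a larger difference were, named after their values were seen, SCMH1 (24.6 points), PALLD (20.9 points) and EBF3 (17.5 points), each less abundant than VASH2, with mean levels of 913, 449 and 1192 TPM over all libraries. Their SDs in IMPA were 18.9, 11.3 and 5.54 points, against 2.17 for VASH2.

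On the log2 scale, which does not favour middle shares, junction over non-junction reads of VASH2 changed by 1.17 (SE 0.10), and 22 circRNAs changed by more. The median over the 690 was 0.32, which leaves 0.85 for VASH2 above the median. For CAMSAP1 the change was 0.03 (SE 0.08), which is -0.29 relative to the median. Junction over non-junction reads of VASH2 were 0.143 ± 0.0178 (SD, n = 5) in IMPA against 0.321 ± 0.0265 (SD, n = 5) in IMA, and those of CAMSAP1 were 2.57 ± 0.165 (SD, n = 5) and 2.63 ± 0.261 (SD, n = 5).

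**Figure D4:**
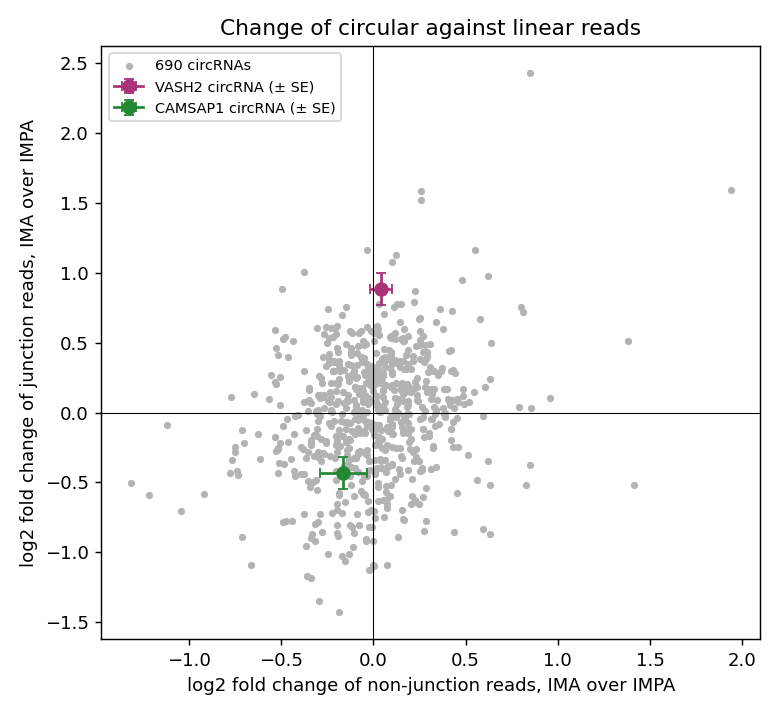
Log2 fold change (IMA over IMPA) of non-junction reads on the horizontal axis and of junction reads on the vertical axis for 690 circRNAs (grey), with VASH2 and CAMSAP1 in colour and bars for the SE. VASH2 lies high on the vertical axis, at 0.88, and near 0 on the horizontal axis, at 0.04, and CAMSAP1 lies at -0.43 and -0.16.

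The predicted pairs of miRNA and circRNA also differed between both. The list gives names without scores or positions. No miRNA was listed for the VASH2 circRNA, either for the whole circle or for its junction. It was 1 of 12 such circRNAs (0.904%) among the 1327, and 2 more had miRNAs listed at the junction alone. Short circles had few miRNAs in general: 83 circRNAs measured 132 nt or less, of which 7 had none, and their median was 2 miRNAs, against 9 over all circRNAs.

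For the CAMSAP1 circRNA 14 miRNAs were listed, which is 3.29 per 100 nt, beside a median of 2.90 per 100 nt over all circRNAs. More miRNAs were listed for 246 circRNAs (18.5%). The names chi-miR-125a-5p, chi-miR-125b-5p and chi-miR-542-5p, were listed at the back-splice junction, and 995 circRNAs (75.0%) had at least 1 miRNA there. The names include pairs from the same miRNA families, such as chi-miR-125a-5p with chi-miR-125b-5p and chi-miR-204-5p with chi-miR-211. The names not yet given were chi-miR-15a-3p, chi-miR-188-5p, chi-miR-214-3p, chi-miR-2331, chi-miR-28-5p, chi-miR-3955-5p, chi-miR-432-3p, chi-miR-485-5p and chi-miR-708-5p. None was particular to CAMSAP1, since each was listed with between 14 and 68 circRNAs.

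Of 240 further genes in a list of microtubule regulators, 26 hosted 40 circRNAs, all of which were tested. None passed an adjusted p of 0.01 or of 0.05 in either direction by edgeR, where the share called at 0.01 over all tested circRNAs was 0.464% in each direction. An unadjusted p under 0.05 was found for 2 of the 40, beside 172 (13.3%) of all 1294. DESeq2 gave 0 at either threshold and 2 with an unadjusted p under 0.05, and limma voom gave 0 at 0.01, 1 at 0.05 (KIF20B, adjusted p = 0.016) and 5 with an unadjusted p under 0.05. The log2 fold change was above 0 for 16 and below 0 for 24, with a median of -0.20, beside -0.08 over all tested circRNAs.

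The enzymes that modify tubulin, the functional group of VASH2, were not represented. None of the 32 other genes listed for tubulin tyrosination, polyglutamylation and acetylation, which include VASH1, SVBP and TTL, hosted a circRNA. In the group of CAMSAP1, with 40 other genes for minus ends, nucleation and severing, 3 hosted 1 circRNA each. The circRNA of the paralog CAMSAP2 (circ_0008306) had 9 to 15 junction reads in IMPA against 7 to 13 in IMA, with a log2 fold change of -0.23 (SE 0.31). That of CDK5RAP2, a centrosomal protein that anchors nucleating complexes, had 2 to 8 and 3 to 6 reads. That of KATNBL1, a regulator of the severing enzyme katanin, had 2 to 4 reads in IMPA against 3 to 14 in IMA, where the reads were 5, 14, 3, 3 and 3, so that 1 library carried its log2 fold change of 1.13 (SE 0.58, edgeR adjusted p = 0.39).

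Among proteins of the lattice and plus end, 9 of 69 genes hosted 13 circRNAs. The 3 most abundant came from DCLK1, a doublecortin-like kinase, DST, a cytoskeletal linker, and SLAIN2, a plus-end protein (circ_0003436). They had 17 to 25, 5 to 21 and 7 to 16 junction reads in IMPA and 10 to 29, 10 to 21 and 4 to 12 in IMA, and log2 fold changes of 0.42 (SE 0.22), 0.34 (SE 0.27) and -0.12 (SE 0.32). Another circRNA of SLAIN2 (circ_0003438) had 2 to 5 reads in every IMPA library and 2 reads in 1 IMA library, with 0 in the others (edgeR adjusted p = 0.23). The smallest count above 0 in the data is 2, so a 0 may also stand for a single read.

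Among motors and their adaptors, 11 of 78 genes hosted 19 circRNAs. The most abundant of the list came from KIFAP3, the adaptor of kinesin-2 (circ_0007990), with 42 to 65 junction reads in IMPA against 37 to 53 in IMA, where the log2 fold change was 0.16 (SE 0.15). A second KIFAP3 circRNA (circ_0007998) had 11 to 16 and 5 to 17 reads, and that of the kinesin light chain KLC1 (circ_0009906) had 9 to 18 and 4 to 10 reads, with log2 fold changes of 0.04 (SE 0.29) and -0.60 (SE 0.31). The smallest p of the list was that of KIF20B, a mitotic kinesin, whose circRNA (circ_0011092) had 5, 7, 3, 3 and 6 reads in IMPA and 2 reads in IMA replicate 5 alone (edgeR adjusted p = 0.080). The circRNA of KLC1 numbered circ_0009910 had 4 to 8 reads in IMPA against 0 to 5 in IMA (edgeR adjusted p = 0.40), and that of ACTR10, a dynactin subunit, had 0 to 5 and 2 to 9 (edgeR adjusted p = 0.46).

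Among tubulins and their folding factors, 3 of 21 genes hosted 5 circRNAs, all from tubulin cofactors and none from a tubulin gene. The most abundant came from TBCE, with 9 to 21 reads in IMPA against 3 to 18 in IMA, TBCD (circ_0009147), with 8 to 17 and 2 to 16, and TBCEL, with 2 to 15 and 3 to 11. Their log2 fold changes were -0.26 (SE 0.32), -0.44 (SE 0.39) and 0.25 (SE 0.43).

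**Figure D5:**
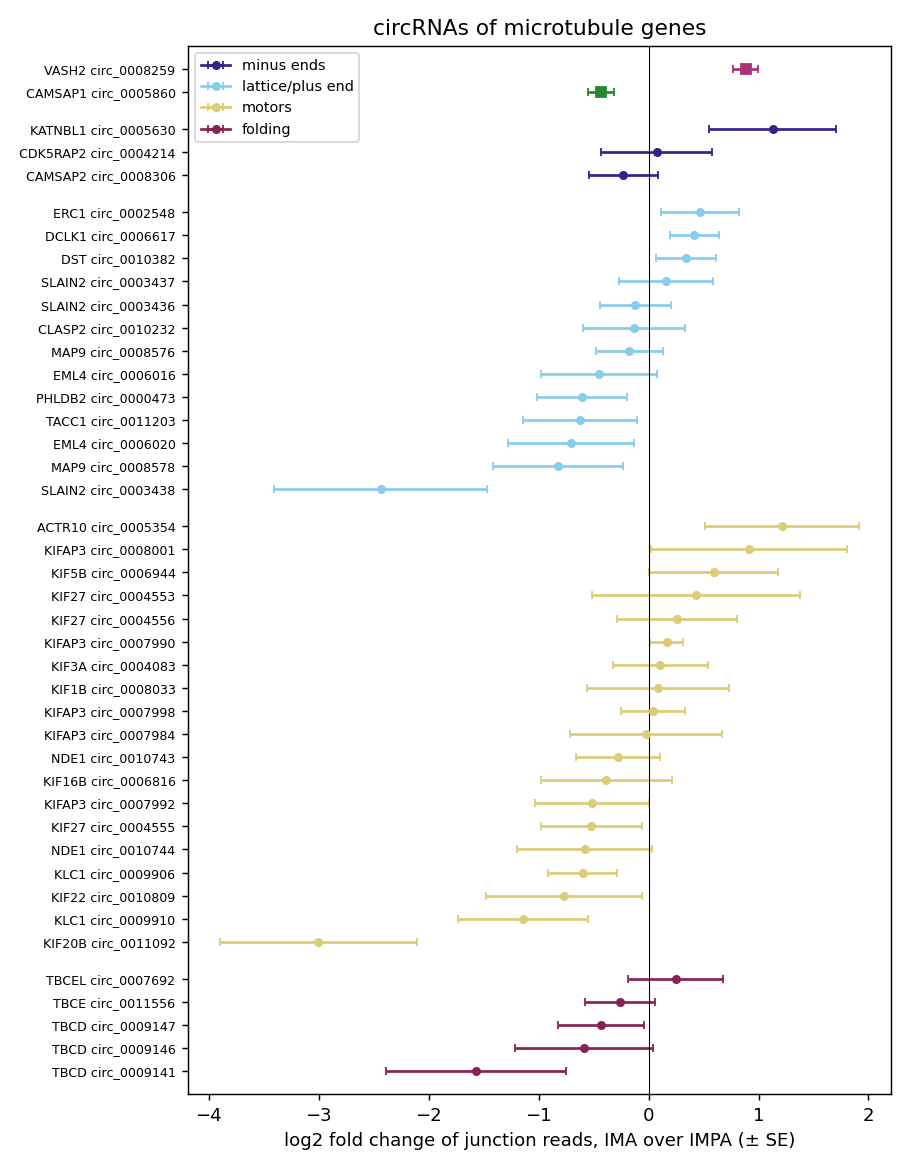
Log2 fold change of junction reads (IMA over IMPA, bars give the SE) for the VASH2 and CAMSAP1 circRNAs (squares) and 40 circRNAs of other microtubule genes (circles, coloured by group of function). Fitted values of circRNAs with 0 reads in some libraries depend on the prior count, and the bars of VASH2 and CAMSAP1, 0.11 and 0.12, are the shortest.

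The circRNAs whose levels ran most like those of the pair over the 10 libraries were sought among 324 with a mean count of at least 10, by the root mean square difference of centred log2 normalized TPM. The nearest to CAMSAP1 was that of PAPD7, a poly(A) polymerase, at 0.17, followed by CDYL, a chromodomain protein, at 0.18 and CNTLN, a centrosomal protein, at 0.20, where the median over all 324 was 0.44. The PAPD7 circRNA had 120 to 155 junction reads in IMPA against 86 to 100 in IMA, and its log2 fold change was -0.33 (SE 0.12). No circRNA ran as close to VASH2, by a measure that includes counting error and the group change by which both members were chosen. The nearest were those of QKI, an RNA-binding protein, at 0.28, of MED17, a subunit of Mediator, at 0.31 and of SNX13, a sorting nexin, at 0.32, where the median was 0.58. Their log2 fold changes, 0.78 (SE 0.25), 0.58 (SE 0.22) and 0.41 (SE 0.16), were all smaller than that of VASH2.

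Some markers of other cells were also called in this contrast. Of 28 striated muscle genes, 5 hosted 1 circRNA each (PAX7, MYBPC1, STAC, FHOD3 and MYPN), and all 5 had a log2 fold change above 0. Those of MYBPC1 and MYPN were higher in IMA at an adjusted p under 0.01 (edgeR), beside 0.464% of all tested circRNAs. Of these 5 circRNAs 4 had an unadjusted p under 0.05, beside 13.3% of all tested circRNAs. The striated muscle list was drawn up with results of this contrast known. The paper reports the circRNAs of MYBPC1, STAC, FHOD3 and MYPN as up-regulated in it, so nothing is read from these shares. The summed level of the 5 was 989 to 1873 TPM in IMPA libraries and 2961 to 5179 TPM in IMA libraries, and the other 23 genes, with TTN, NEB and MYOD1 among them, hosted no circRNA. Of 20 cell cycle genes, 3 hosted 4 circRNAs (from SMC4, NCAPG and CENPF). None of the 4 passed an adjusted p of 0.01 by edgeR, beside 0.464% of all tested circRNAs in each direction. An unadjusted p under 0.05 was found for 2 of them, beside 13.3% of all tested circRNAs. All 4 had a log2 fold change below 0, with a median of -1.31. The summed level of the 4 was 2186 to 3677 TPM in IMPA libraries and 1525 to 2160 TPM in IMA libraries. The preadipocyte and fibroblast genes COL5A2 and FBN1 hosted 3 circRNAs, with a median log2 fold change of 0.01. Of these 3, 2 had a log2 fold change above 0 and 1 below. None of them passed an adjusted p of 0.01 by edgeR, beside 0.464% of all tested circRNAs in each direction. The part of muscle cells or of the cell cycle in the change of VASH2 and CAMSAP1 was not tested. In bulk samples, fewer cells of a type and less RNA per cell cannot be told apart.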

How the data were processed

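CircRNAs were measured in 5 IMPA and 5 IMA libraries, grouped by their labels. Per the paper, the authors mapped clean reads with HISAT2 and kept circRNAs called by both find_circ (read count of at least 2) and CIRI2. The genome build and tool versions are not given in the sources used here. The deposited counts are junction reads per circRNA. The deposited TPM values are CPM, count × 1000000 over the summed counts, with which they agree within 4.99e-06. The authors' circRNA table gives the same junction counts and non-junction counts per library, and it names 10 further samples that were not used. The list of miRNA pairs holds names alone. Host genes were named as in the files, and all 1310 gene IDs matched RefSeq.

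Change was fitted with edgeR 4.0.16 (R 4.3.3; TMM, glmQLFit and glmQLFTest, prior count 0.125) over the 1294 circRNAs that 5 or more of the 10 libraries detected, with Benjamini-Hochberg adjustment at 0.01. SEs of fold changes were derived from the quasi-likelihood F. Non-junction reads were fitted likewise, over the 690 circRNAs with a value listed in all 10 libraries rather than those above 0 in at least 5, because a library without a junction read lists no non-junction value. Log2 levels used a prior count of 2. Alternatives were DESeq2 1.42.0 (size factors in edgeR, and its Wald test), limma 3.58.1 voom, no TMM, non-junction totals as library size, other filters on low counts (none, filterByExpr, a mean count of at least 10), 0.05 as threshold, a replicate block, each library left out, another formula of the circular share, and TPM per spliced length. Same-numbered libraries of both groups deviated from their group means with correlations of -0.05 to 0.01. As most circRNAs had only a few reads per library, such correlations cannot exclude a pairing. The sources used here do not tie libraries to goats, and replicate numbers were not used to pair them in the main fit. No 2 libraries held identical counts. Between 2 libraries of a group, chi-square over degrees of freedom was 1.18 to 1.55. A 0 may stand for a single read, and the part of this in the value was not tested.

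The genes, gene lists and rules were chosen with earlier results of these data known. Besides all circRNAs of VASH2 and CAMSAP1, the text names, from the microtubule list, those with an adjusted p under 0.05 (none), the 3 with the highest mean TPM in each group of function and the 3 with the smallest p in each direction, and the 3 circRNAs nearest in profile to each member. Reads carry no molecular identifiers, and depth limits small changes. A count of 0 does not exclude a low level, and 3 reads are worth 193 to 312 TPM.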

Additional observations from a re-analysis of the deposited data

How the results depend on the processing

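The log2 fold change of VASH2 junction reads stayed above 0 and that of CAMSAP1 below 0 under all 19 alternatives. With a library left out they were 0.82 to 0.93 and -0.50 to -0.36. With non-junction totals as library size they moved by more than the SD between libraries, to 1.14 and -0.18. With the replicate block they were 0.89 and -0.44, and over all circRNAs 6 were called higher and 5 lower. The log2 fold changes of non-junction reads were 0.01 to 0.07 for VASH2 and -0.21 to -0.08 for CAMSAP1 with a library left out, and -0.02 and -0.23 without TMM, where the sign of VASH2 turned. The IMA excess of the VASH2 circular share was 16.1 to 17.5 percentage points with a library left out, and 11.8 points as junction over junction plus non-junction reads. That of CAMSAP1 was -0.09 to 0.78 points. By TPM per spliced length, which favours short circles, the rank in IMPA went from 9 to 1 for VASH2 and from 1 to 5 for CAMSAP1.

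The 6 circRNAs called higher in IMA became 3 with filterByExpr and 3 with a mean count of at least 10, and were 5 to 6 with a library left out. The 6 called lower became 2 without TMM, 1 with non-junction totals, 10 with a mean count of at least 10 and 13 at a threshold of 0.05, and 1 to 6 with a library left out: 3 without IMPA replicate 1 or 5, 2 without IMA replicate 1 or 2 and 1 without IMA replicate 4. The microtubule list had 0 calls under all 20 alternatives, a threshold of 0.05 in edgeR among them. The causes were not tested. At this depth, small changes of circRNAs with a few reads are not detectable.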
